A study of Drosophila melanogaster with 27 samples.

Results

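The comparison described here asks whether loss of Ythdf changes which RNAs come down with Fmr1 beyond a control antibody. For each gene, the log2 fold change of Fmr1 pull-down over IgG pull-down in wild-type flies was subtracted from the same fold change in Ythdf mutant flies, and this difference in enrichment is the quantity reported. The members were all 18 pull-down libraries of the 27 libraries of the study and all 17807 genes listed in its count table, of which 11469 had enough counts to be tested. Wild-type flies were of the w1118 stock, and mutant flies were of the stock CG6422, whose genotype is labelled Ythdf#0/#0. The labels do not describe the mutation, and they name the whole brain as tissue where the protocol describes pupal heads. Per genotype 200 heads were lysed, 1/10 of the lysate was kept as input, and the rest was split between a pull-down with the Fmr1 antibodies 5B6 and 5A11 and a control pull-down with mouse IgG, both on Protein G beads. For every kind of library there were 5 biological replicates from wild-type flies (numbered 1, 2, 3, 5 and 7) and 4 from mutant flies (1, 2, 3 and 7).

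Fmr1 is the fly counterpart of FMRP, the protein lost in fragile X syndrome. It binds mRNAs in neurons and other cells, and is best known for holding back their translation in axons, dendrites and at synapses. Ythdf is the cytoplasmic reader of m6A, a methyl mark that a nuclear writer complex built around Mettl3 and Mettl14 places on adenosines of mRNAs. The nuclear reader of the mark in flies is Ythdc1.

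The Fmr1 libraries held 14843961 to 29699547 gene counts each for the wild type and 10726339 to 54195136 for the mutant. The matching IgG libraries were less deep, with 196933 to 5879253 and 274951 to 3052311 counts. Among genes with a mean of 4 to 6 log2 CPM (CPM, counts scaled by TMM to a common library size), the median IgG count was 55.0 in the wild type and 46.5 in the mutant, against 608 and 749.8 in Fmr1 libraries. All defining markers of neurons, glia, photoreceptors, fat body, muscle and hemocytes had counts in every group, so the libraries held RNA from cells outside the brain. Ythdf gave 69.1, 62.8, 63.3, 55.5 and 58.5 CPM in wild-type and 35.5, 36.3, 31.7 and 29.4 CPM in mutant inputs, without overlap (edgeR, −0.90 ± 0.32, adjusted p = 0.107). How much of the gene the mutant allele leaves is not given in the labels, so this level is a weak check of them. In such bulk samples, fewer cells of a type and less RNA per cell cannot be told apart.

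No gene passed the threshold for a difference in enrichment (0 of 11469, or 0%, at an adjusted p under 0.05 in edgeR's quasi-likelihood test with Benjamini-Hochberg adjustment). The smallest adjusted p was 0.0542, shared by Dnaaf3 and Nep5, and 504 genes (4.39%) had an unadjusted p under 0.05. The values were centred near 0, with a median of 0.0034 on the log2 scale, 5768 genes above 0 and 5701 below. DESeq2 called 5 genes, Pde11, Dnaaf3, Nep5, Raf and lncRNA:CR44603, and limma voom with quality weights called 0. In edgeR's fit of the 18 pull-down libraries alone, the smallest adjusted p was 0.160. The main fit also used the inputs, which take no part in the contrast, to estimate the spread. Without replicate 1 of the wild-type IgG libraries, Nep5 and Dnaaf3 passed. Dnaaf3 also passed without replicate 2, and Pde11 without replicate 7, of the same group. Fits that also hold the lysate or the replicate number as a block gave other counts. A block by lysate called 1 gene (snoRNA:Or-aca5), a block by number called 2, and both blocks together called 50, 32 higher and 18 lower. The last fit has 3 residual degrees of freedom, and it called these 50 of 10729 genes tested. Its calls include 8 of the 20 genes of smallest p, 10 in each direction, described here. These were Pde11, Su(var)3-3, Nepl18 and CG3829 on the lower side and Dnaaf3, Nep5, Nepl19 and Hus1-like on the higher side. The 20 were ranked by p on the same pull-down libraries, so this is no independent support. Lysates were split between Fmr1 and IgG pull-downs, but the labels do not say that a number marks a lysate or a day. The main fit holds no block, so it treats libraries of a shared lysate as independent.

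The size of the differences that these libraries could show varied with abundance. The median standard error of the difference was 0.42 over the 11394 genes with counts in every pull-down group. The 95% interval stayed within a 2-fold difference in either direction for 4442 of these genes (39.0%) and within 4-fold for 8377 (73.5%). For the 1881 genes that the wild-type Fmr1 libraries held above IgG, the interval stayed within 2-fold for 1448 (77.0%) and within 4-fold for 98.6%. Among genes held below IgG there, 1935 had counts in every pull-down group, and it stayed within 2-fold for 229 of them (11.8%). Both sets were cut on wild-type libraries that enter the difference, so these shares are not independent of the cut. The interval lay wholly beyond 2-fold for 28 of the 11394 genes, 2 of them among the 1881 and 23 among the 1935. Among genes with a mean of at most 2 log2 CPM, the median standard error was 0.97, against 0.28 at 6 to 8 log2 CPM.

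Most RNAs that Fmr1 pull-down held above or below IgG in the wild type lay on the same side in the mutant. In the wild type 3835 genes (33.4%) differed between Fmr1 and IgG libraries, 1881 higher (16.4% of genes) and 1954 lower (17%) in Fmr1. In the mutant 2341 genes (20.4%) differed, 1239 higher (10.8%) and 1102 lower (9.61%). Scaling by DESeq2 size factors moved the centre of both comparisons, with a median of −0.25 in the wild type and −0.15 in the mutant, and split the calls into 982 higher and 2563 lower and into 650 and 1338. The genotypes share no library here, and 1031 genes were higher over IgG in both, which is 54.8% of the genes called so in wild-type flies and 83.2% of those called so in mutants. A further 834 genes were lower in both, 42.7% and 75.7% of the lists. Values had the same sign in the mutant for 1837 of the 1881 genes higher and for 1839 of the 1954 lower in the wild type. Called in opposite directions were 3 genes: Su(var)3-3 and CG3829 were higher than IgG in the wild type and lower in the mutant, and Nep5 was lower in the wild type and higher in the mutant. Over the 5294 genes of at least 4 log2 CPM, Pearson's r of the wild-type and the mutant fold change was 0.915, a description across genes, which are not independent replicates.

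**Figure D1:**
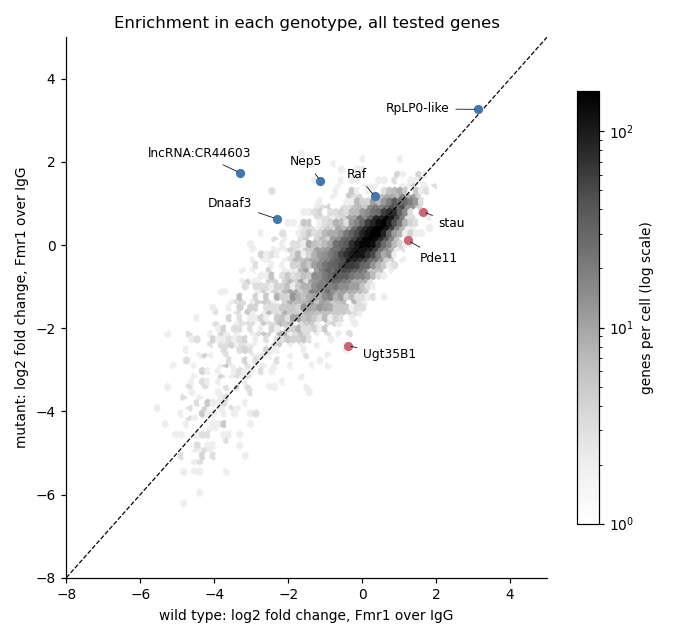
Log2 fold change of Fmr1 over IgG in the wild type (x axis) and in the mutant (y axis) for the 11394 tested genes with counts in every pull-down group, shaded by the number of genes per cell, with the dashed line where both are equal. Most genes lie along the line, Pde11 and stau (red, lower in the mutant) and Raf, Nep5 and Dnaaf3 (blue, higher) lie off it, and none passed the test of the difference.

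A call in a single genotype was no test of a difference between them. There were 850 genes higher over IgG in the wild type and not called in the mutant, with medians of 0.67 and 0.41. None of them passed the test of the difference, and 83 had an unadjusted p under 0.05. The converse group held 208 genes, with medians of 0.36 in the wild type and 0.76 in the mutant, of which 0 passed and 32 had an unadjusted p under 0.05. The genes higher in both had a median difference of −0.032, and 13 of them had an unadjusted p under 0.05. These groups were cut on values that enter the difference, so the sign of their medians follows from the cut.

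Pde11, a phosphodiesterase that breaks down cyclic nucleotides, had the smallest p among genes with lower enrichment in the mutant. In wild-type Fmr1 libraries it stood at 463, 454, 398, 432 and 434 CPM, and in mutant Fmr1 libraries at 156, 232, 235 and 246 CPM. The IgG libraries held 211, 135, 180.5, 172 and 223 CPM in the wild type and 235, 163, 183 and 225 CPM in the mutant. Every mutant Fmr1 library was below the lowest wild-type one and close to the IgG libraries, which overlapped between genotypes. Enrichment over IgG was 1.24 ± 0.15 (log2, SE; adjusted p = 6.40e-07 in edgeR) in the wild type and 0.11 ± 0.16 (adjusted p = 0.689) in the mutant. The difference was −1.13 ± 0.22 with a 95% interval of −1.57 to −0.68, which did not pass in edgeR (adjusted p = 0.0634). In edgeR's fit of the 18 pull-down libraries alone, without the inputs, it was −1.11 (adjusted p = 0.9998). With blocks in the same tool it was −1.11 by lysate (adjusted p = 0.675), −1.10 by number (adjusted p = 0.156) and −1.08 by both, where it passed (adjusted p = 0.00151).

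Within Fmr1 libraries alone, Pde11 fell by 1.01 ± 0.15 on the log2 scale from wild type to mutant (edgeR, adjusted p = 5.37e-05). This call held without any of the 9 Fmr1 libraries, with adjusted p from 9.22e-05 to 4.86e-04. The inputs gave no matching drop, with 158, 138, 154, 148 and 124 CPM in the wild type and 159, 178, 174 and 186 CPM in the mutant, all 4 mutant values above every wild-type value. The input change was 0.27 ± 0.15 (adjusted p = 0.329), a value that missed the threshold. With input in place of IgG as reference, Pde11 was the only gene called (1 of 11469, 0.00872%), at −1.28 ± 0.21 (edgeR, adjusted p = 0.0178). That contrast uses the same Fmr1 libraries, so it is no independent support. It missed the threshold without replicate 7 of the mutant inputs (adjusted p = 0.0837), replicate 2 of the wild-type inputs (0.0519) and replicate 7 of the wild-type inputs (0.0645), with values from −1.35 to −1.17 over all 18 omissions. DESeq2 called 2 genes and limma voom 26 in it, Pde11 among them in both.

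Taking the Fmr1 and IgG libraries of the same number as pairs, Pde11 enrichment was 1.13, 1.75, 1.14, 1.32 and 0.96 in the wild type and −0.59, 0.51, 0.36 and 0.13 in the mutant on the log2 scale. These values did not overlap, which was so for 164 genes (1.43%), 60 higher and 104 lower in the mutant. In the fit of replicates 2 and 3 alone, the difference of Pde11 was −0.94, and in that of replicates 1, 5 and 7 it was −1.31, with 0 genes called in either. Pde11 was chosen by p on these same libraries, so neither the pairs nor these fits are independent support. All 20 genes of smallest p kept their sign in both fits, and 8 of the 10 on the lower side had pairs without overlap. Pde11 belonged to a list of 27 tested genes of cyclic nucleotide signalling, whose median difference was 0.087. A member with a value on the other side was Pkg21D, a cGMP-dependent protein kinase, at 0.97 ± 0.40, with IgG levels of 8.26 to 24.02 CPM for the wild type against 3.23 to 4.86 for the mutant.

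**Figure D2:**
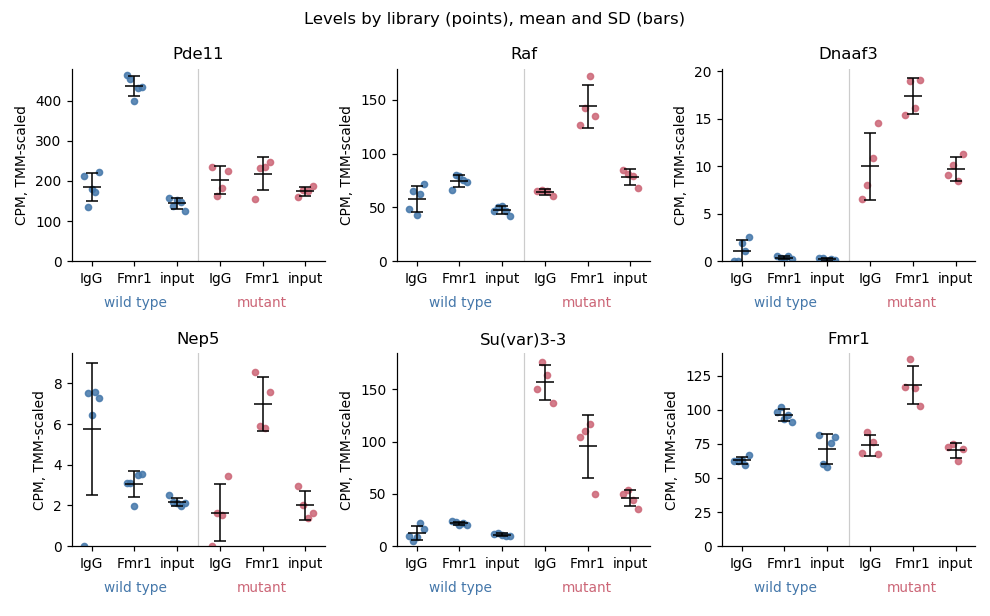
CPM after TMM scaling of 6 genes in each library (points) with mean and SD (bars), for IgG, Fmr1 and input libraries of the wild type (blue, 5 libraries each) and the mutant (red, 4 each). Pde11 is highest in wild-type Fmr1 libraries, Raf and Dnaaf3 differ in the inputs too, and Fmr1 mRNA is above IgG in both genotypes.

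Raf, the kinase that links Ras to the MAP kinase cascade, had the largest abundance among the 10 genes with the smallest p on the higher side. In mutant Fmr1 libraries it stood at 126.2, 143, 172 and 135 CPM against 65.9, 80.4, 78.9, 75.2 and 73.6 CPM in the wild type, with no overlap. The IgG libraries overlapped, at 48.0, 65.0, 43.2, 62.8 and 71.4 CPM in the wild type and 65.3, 66.1, 65.1 and 60.4 CPM in the mutant. The inputs differed as well, with 47.0, 50.0, 50.9, 46.9 and 41.9 CPM in the wild type and 84.6, 81.1, 79.5 and 67.8 CPM in the mutant and no overlap (edgeR, 0.73 ± 0.13, adjusted p = 6.33e-04). Enrichment over IgG was 0.34 ± 0.14 in the wild type and 1.17 ± 0.15 in the mutant, a difference of 0.83 ± 0.20 (adjusted p = 0.440), and 0.22 ± 0.19 with input as the reference.

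Dnaaf3, an assembly factor of the dynein arms of cilia, was nearly absent from the wild type. Its input levels were 0.360, 0.307, 0, 0.220 and 0.131 CPM in the wild type and 9.11, 10.2, 8.41 and 11.3 CPM in the mutant. Mutant Fmr1 libraries held 15.4, 19.0, 16.2 and 19.1 CPM, above the mutant IgG libraries at 6.53, 8.07, 10.8 and 14.6 CPM. Wild-type Fmr1 libraries held 0.533, 0.298, 0.274, 0.552 and 0.279 CPM and wild-type IgG libraries 0, 0, 1.93, 1.08 and 2.59 CPM, which came from at most 16 counts in a library. The difference was 2.94 ± 0.53 with IgG and −0.19 ± 0.55 with input as the reference, and the larger value rests on wild-type IgG libraries with these few counts. Dnaaf3 rose in the inputs (5.65 ± 0.37, adjusted p = 5.38e-12 in edgeR).

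Nep5, a neprilysin-type metallopeptidase, had overlapping inputs, at 2.52, 2.15, 2.11, 1.98 and 2.10 CPM in the wild type and 2.97, 2.02, 1.37 and 1.63 CPM in the mutant. Its Fmr1 levels were 3.09, 3.13, 1.99, 3.52 and 3.56 CPM in the wild type and 8.57, 5.93, 5.83 and 7.56 CPM in the mutant, with no overlap. Its IgG levels were 0, 7.50, 6.44, 7.59 and 7.29 CPM and 0, 1.61, 1.55 and 3.43 CPM, and replicate 1 had 0 counts in both genotypes. These levels came from 0, 3, 10, 7 and 45 counts in the wild type and 0, 1, 2 and 12 in the mutant, so the values over IgG rest on few counts. Enrichment was −1.13 ± 0.30 in the wild type and 1.55 ± 0.39 in the mutant, both called in edgeR. Nep5 shares exon bases with RYa-R on the opposite strand. The difference was 2.68 ± 0.50 (edgeR, adjusted p = 0.0542), 2.51 to 3.47 when any 1 pull-down library was left out. Nepl19, a neprilysin-like gene, had a difference of 1.75 ± 0.41, and Nepl18, another, one of −1.39 ± 0.35, so members of this family had values of either sign. Reads of such related genes can be assigned to the wrong member.

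The other genes on the higher side were mostly scarce. Of the 10, 8 had a mean under 4 log2 CPM. For tor, which encodes the receptor tyrosine kinase Torso, mutant Fmr1 libraries held 1.01 to 1.54 CPM and wild-type ones 0.149 to 0.483 CPM, and the difference was 3.38 ± 0.87. Hus1-like, a relative of a DNA damage checkpoint protein, had 2.10 ± 0.54, and its IgG levels were 4.80 to 56.7 CPM for the wild type against 3.26 to 10.1 for the mutant. Without replicate 7 of the wild-type IgG libraries, the highest of them, Hus1-like was at 1.07. For dpr2, a cell surface protein of the immunoglobulin superfamily, the value was 1.29 ± 0.34. Its Fmr1 levels overlapped, at 21.3 to 27.4 and 19.9 to 26.8 CPM, while its IgG levels were 16.8 to 65.4 CPM for the wild type against 12.9 to 17.2 for the mutant. Without the same library dpr2 was at 0.85. The remaining values were 5.05 ± 1.17 for lncRNA:CR44603, 4.56 ± 1.19 for CG32650 and 3.71 ± 0.99 for CG15047. For lncRNA:CR44603 the value was 2.29 without replicate 3 of the wild-type IgG libraries, which held 6.44 CPM where the other 4 held at most 0.324. All 10 had adjusted p from 0.0542 to 0.543 in edgeR.

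On the lower side, Su(var)3-3, the fly histone H3K4 demethylase of the LSD1 type, had a difference of −1.38 ± 0.33 although it was more abundant in the mutant in every kind of library. Its Fmr1 levels were 23.97, 22.8, 20.6, 22.1 and 19.8 CPM in the wild type and 105, 110.4, 117 and 50.3 CPM in the mutant. Its IgG levels were 9.61, 5.002, 9.02, 21.7 and 16.2 CPM and 150.1, 176, 164 and 137 CPM. Neither kind overlapped between genotypes, and the IgG libraries differed by the larger amount (3.51 ± 0.26 against 2.12 ± 0.21). Enrichment was 0.67 ± 0.24 in the wild type (adjusted p = 0.0344 in edgeR) and −0.71 ± 0.22 in the mutant (adjusted p = 0.0225). With input as the reference the difference was 0.074 ± 0.29. CG3829, the other gene with calls of opposite sign, was at 0.51 ± 0.19 and −0.56 ± 0.20, and its mutant IgG libraries were higher (1.00 ± 0.21, adjusted p = 0.00460 in edgeR) while its Fmr1 value was −0.071 ± 0.18.

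Ugt35B1 and Ugt35C1, which encode UDP-glycosyltransferases, had differences of −2.03 ± 0.44 and −1.85 ± 0.48. Both fell in mutant inputs (edgeR, adjusted p = 4.58e-13 and 3.48e-06), Ugt35B1 at 1.25 to 1.65 CPM against 21.96 to 28.1 and Ugt35C1 at 1.72 to 2.79 CPM against 8.64 to 16.1. With input as the reference their values were −0.11 ± 0.33 and 0.38 ± 0.40. For ppk13, of the DEG/ENaC family of sodium channels, Fmr1 levels were 7.15, 6.25, 7.47, 8.76 and 7.12 CPM in the wild type and 1.60, 2.66, 2.53 and 5.79 CPM in the mutant. Its IgG counts were at most 9 in a library, and the difference was −2.59 ± 0.70. Nepl18 had Fmr1 levels that overlapped, at 27.4 to 51.9 and 29.5 to 56.7 CPM, and IgG levels of 9.61 to 24.9 and 27.4 to 65.3 CPM. The values of the remaining genes were −1.81 for CG16865, −1.07 for CG3829, −1.03 for CG10616 and −1.24 for CG8675. All 10 had adjusted p from 0.0634 to 0.563 in edgeR.

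**Figure D3:**
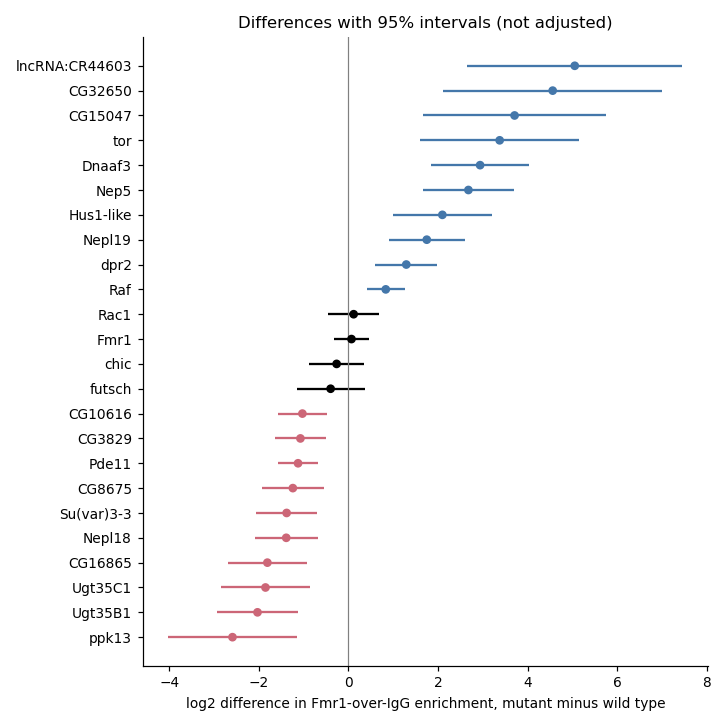
Log2 difference in Fmr1-over-IgG enrichment, mutant minus wild type, with its 95% interval (not adjusted for the number of genes) for the 10 genes with the smallest p in each direction and, in black, Fmr1, futsch, chic and Rac1. The 20 intervals lie off 0 because the genes were chosen for a small p, and the black ones span it.

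The 20 genes differed in where their values came from. In the Fmr1 libraries 633 genes (5.52%) differed between genotypes, 343 higher (2.99%) and 290 lower (2.53%) in the mutant. The labels do not say that a number links libraries across genotypes. With the replicate number as a block 1249 genes passed, 627 higher and 622 lower. In the IgG libraries 490 genes (4.27%) differed, 240 higher (2.09%) and 250 lower (2.18%), or 189 and 303 with DESeq2 size factors. Of the 10 genes on the higher side, 7 were higher in mutant Fmr1 libraries, 4 were lower in mutant IgG libraries and 1, Dnaaf3, was higher there. Of the 10 on the lower side, 5 were lower in Fmr1 libraries, 5 were higher in IgG libraries and 1 was lower there. In the inputs 652 genes (5.68%) differed, 382 higher and 270 lower, and 9 of the 20 were among them. With input in place of IgG as the reference, 16 of the 20 kept the sign of their difference and Pde11 alone was called. The 20 were chosen by p on these Fmr1 and IgG libraries, and the input reference uses the same Fmr1 libraries. These counts of the 20 are thus tied to the choice and are no independent support. In the annotation of the assembly BDGP6.54, 5 of the 20 share exon bases with another gene, all 5 on the opposite strand and Hus1-like on its own strand too, and the strand setting of the counts is not given in the sources used here.

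Genes that differed between genotypes in the Fmr1 libraries mostly differed alike in the lysates. Of the 343 higher in mutant Fmr1 libraries, 227 were called higher in mutant inputs (66.2% of these and 59.4% of the input list), and 342 had a value above 0 there. Of the 290 lower ones, 169 were called lower in mutant inputs (58.3% and 62.6%), and 282 had a value below 0. None was called in the opposite direction. These libraries are separate, but inputs and pull-downs were taken from the same lysates. Over all 11469 genes, 382 were called higher and 270 lower in mutant inputs, with 6180 values above 0 and 5289 below.

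The mRNA of Fmr1 itself was enriched over IgG in both genotypes. Fmr1 libraries held 98.1, 102, 93.4, 96.1 and 91.3 CPM in the wild type and 116, 137, 116 and 103 CPM in the mutant, and IgG libraries 62.4, 62.5, 63.2, 59.6 and 66.6 CPM and 68.5, 83.9, 76.7 and 67.5 CPM. In each genotype every Fmr1 library was above every IgG library, and mutant libraries of either kind were above the wild-type ones by amounts that missed the threshold (0.30 ± 0.12 in Fmr1 and 0.23 ± 0.14 in IgG libraries, adjusted p = 0.189 and 0.449 in edgeR). Enrichment was 0.61 ± 0.13 in the wild type (edgeR, adjusted p = 5.17e-04) and 0.67 ± 0.14 in the mutant (adjusted p = 0.00112), and the 95% interval of the difference of 0.067 ran from −0.32 to 0.45, within a 2-fold difference. By number, the pairs gave 0.65, 0.71, 0.56, 0.69 and 0.45 in the wild type and 0.76, 0.71, 0.60 and 0.61 in the mutant, a difference in means of 0.058 (exact two-sided permutation test over all splits of the pairs, p = 0.397, adjusted over 4 tests 0.529, where the smallest p possible is 0.0159).

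Transcripts long described as Fmr1 targets had wider intervals. futsch, the fly MAP1B-like microtubule protein whose translation Fmr1 limits at the neuromuscular junction, stood at 2753, 4235, 3685, 2768 and 2784 CPM in wild-type and 2241, 3464, 3534 and 2046 CPM in mutant Fmr1 libraries. Its IgG libraries held 2219, 3516, 2402, 1719.7 and 1427 CPM and 1769, 2685, 4159 and 1714 CPM, so that all 4 groups overlapped. Enrichment was 0.53 ± 0.25 in the wild type (adjusted p = 0.106 in edgeR) and 0.13 ± 0.28 in the mutant, and the difference of −0.40 had an interval of −1.16 to 0.36. It was −0.072 without replicate 3 of the mutant IgG libraries, −0.62 without replicate 2 of the wild-type ones and −0.094 with voom. The pairs gave 0.31, 0.27, 0.62, 0.69 and 0.96 against 0.34, 0.37, −0.23 and 0.25 (exact permutation p = 0.127, adjusted 0.476).

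For chic, the fly profilin, the pairs gave 0.052, 0.22, −0.013, 0.46 and 0.89 in the wild type and 0.053, −0.25, 0.0052 and 0.28 in the mutant (exact permutation p = 0.238, adjusted 0.476), and the difference in the model was −0.26, with an interval of −0.87 to 0.34 and values of −0.42 to −0.11 when 1 library was left out. Rac1, a small GTPase of actin remodelling, gave 0.26, −0.23, 0.62, 0.25 and 0.30 and −0.15, 0.66, 0.76 and 0.15 (exact permutation p = 0.651), and 0.12 in the model, with an interval of −0.45 to 0.68. Neither mRNA was called over IgG in either genotype. The list of described targets held 17 tested genes, 0 of which passed. Their median difference was 0.067, just below 0 in the 18 pull-down libraries alone, and 6 (35.3%) were higher over IgG in the wild type and 5 (29.4%) in the mutant, against 16.4% and 10.8% of all genes. Its member with the smallest p was poe, which encodes a very large ubiquitin ligase of the UBR4 type, at −0.75 ± 0.25 (adjusted p = 0.860, edgeR).

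The values of poe did not overlap by pair, with 0.84, 0.41, 0.50, 0.41 and 0.89 in the wild type and −0.058, 0.20, −0.70 and 0.11 in the mutant. Over all genes this was so for 1.43%, and poe was named for its small p, so the gap is tied to that choice. It fell in mutant Fmr1 libraries (−1.14 ± 0.18, adjusted p = 7.87e-05) and in mutant inputs (−0.83 ± 0.18, adjusted p = 0.00305, both edgeR), and its IgG value was −0.39 ± 0.17 (adjusted p = 0.218). With input as the reference the difference was −0.31 ± 0.24.

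**Figure D4:**
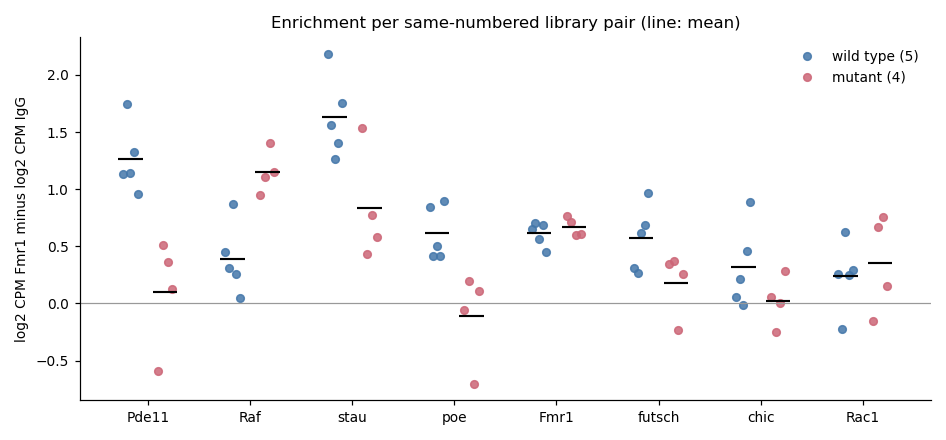
Log2 CPM of the Fmr1 library minus log2 CPM of the IgG library of the same number (y axis) for 8 genes, in the wild type (blue, 5 pairs) and the mutant (red, 4 pairs), with lines at the means. The pairs of Pde11, Raf and poe do not overlap between genotypes, as for 1.43% of all genes, while those of stau, Fmr1, futsch, chic and Rac1 do.

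None of the 9 tested genes of m6A writing and reading passed, and none had an unadjusted p under 0.05. Their values ran from −0.37 to 0.36, with a median of 0.17 and p from 0.212 to 0.947. Ythdf, whose gene the mutant stock alters, still gave reads in mutant Fmr1 libraries, at 36.7, 15.4, 17.8 and 23.8 CPM against 71.8, 39.4, 38.03, 75.1 and 63.3 CPM in the wild type. It fell in mutant Fmr1 libraries (−1.30 ± 0.33, adjusted p = 0.0139 in edgeR), with no overlap, and its IgG levels overlapped, at 8.52 to 52.2 against 29.0 to 90.04 CPM. It was enriched over IgG in neither genotype (−0.025 ± 0.32 and −0.39 ± 0.38), and its difference was −0.37 ± 0.50. nito, an RNA-binding subunit of the writer complex, had the smallest p of the list at 0.36 ± 0.29. The other members were 0.042 for the catalytic subunit Mettl3, 0.18 for its partner Mettl14, 0.22 for the subunit fl(2)d, 0.17 for the subunit vir, −0.041 for the subunit Flacc, 0.07 for the ubiquitin ligase Hakai and 0.25 for the nuclear reader Ythdc1.

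Lists of neuronal genes had medians near 0, and 0 of their members passed. Over all genes tested 4.39% had an unadjusted p under 0.05, and the median was 0.0034. Of 43 axon guidance and growth genes, 24 were above 0 and the median was 0.085. Sema1b, a transmembrane semaphorin, had −0.45 ± 0.18 (adjusted p = 0.968), and kirre, an adhesion protein of the immunoglobulin superfamily, 0.78 ± 0.34, and these 2 were the members with p under 0.05. Of 31 synaptic vesicle and active zone genes, 21 (67.7%) were higher over IgG in the wild type and 18 (58.1%) in the mutant, against 16.4% and 10.8% of all genes, 0 had p under 0.05, and the median difference was −0.075. shi, the fly dynamin, was at −0.30 and Syt7, a synaptotagmin, at 0.83.

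Ion channels were above 0 in 24 of 32 genes, with a median of 0.19 and 0 members with p under 0.05. Neurotransmitter receptors were above 0 in 32 of 40, with a median of 0.16, and 1 of them had p under 0.05, the octopamine receptor Oamb at 0.65 ± 0.29. The median IgG difference of these lists, mutant minus wild type, was −0.44 for the channels and −0.44 for the receptors against a median of −0.0013 over all genes. Their Fmr1 medians were −0.28 and −0.30. The part of the IgG values in the list medians was not tested. Genes of transmitter synthesis and transport were below 0 in 14 of 17, with a median of −0.15, and Tbh, which makes octopamine, was at −0.69 ± 0.29. Cell adhesion genes had a median of 0.093, with Nlg4, a neuroligin, at 0.80. Actin and microtubule genes had −0.081, with kst, a beta-heavy spectrin, at −0.74 ± 0.32.

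Growth and gene expression lists had medians slightly below 0. TOR and growth signalling genes were below 0 in 15 of 20, with a median of −0.22, and 0 had p under 0.05. S6k, the ribosomal protein S6 kinase, was at −0.39 and Pi3K21B, the adaptor of the insulin-regulated lipid kinase, at −0.47. Of 44 genes for RNA granule and RNA-binding proteins, 22 (50.0%) were higher over IgG in the wild type and 10 (22.7%) in the mutant, against 16.4% and 10.8% of all genes. The test of the difference called none, and the median was −0.075. The smallest p among them belonged to stau, the double-stranded RNA-binding protein Staufen. Its Fmr1 libraries held 1071, 754, 629.8, 762 and 662 CPM in the wild type and 692, 530.0, 620.3 and 543 CPM in the mutant, and its IgG libraries 235, 255, 263, 287 and 196 CPM and 238, 392, 363 and 362 CPM. The genotypes overlapped in both kinds of library. Enrichment was 1.65 ± 0.17 in the wild type and 0.80 ± 0.18 in the mutant, both called in edgeR, and the difference was −0.85 ± 0.24 (adjusted p = 0.725).

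Translation factors were below 0 in 32 of 39 genes, with a median of −0.15 and an IgG median, mutant minus wild type, of 0.37. eIF3m, a subunit of an initiation factor complex, was at −0.64 ± 0.31. Ubiquitin ligases were below 0 in 21 of 26, with a median of −0.13, poe and hyd (−0.43 ± 0.18) being the members with p under 0.05. The 38 chromatin regulators had a median of −0.056, which turned positive with DESeq2 size factors. Among them brm, the ATPase of a remodelling complex, was at −0.50 ± 0.23 and Acf, a subunit of another, at 0.80 ± 0.35. Proteasome genes had a median of −0.10, with 0 members under 0.05.

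Ribosomal protein mRNAs lay below IgG in both genotypes. The 82 cytosolic ribosomal protein mRNAs had medians over IgG of −1.25 in the wild type and −1.28 in the mutant, 66 and 64 of them called lower (against 17% and 9.61% of all genes), and a median difference of −0.021, which turned positive with DESeq2 size factors and in the 18 pull-down libraries alone. RpL26 was at −0.51 and RpL19 at −0.59, and 0 members had p under 0.05. The 74 tested nuclear genes of oxidative phosphorylation had −0.73 and −0.65, 41 (55.4%) and 25 (33.8%) called lower, and a median difference of 0.031. Mitochondrial ribosomal proteins were at −0.12, with 4 of 71 members at p under 0.05, near the 4.39% of all genes. These 4 were below 0, such as mRpL46 (−1.07 ± 0.39, adjusted p = 0.901) and mRpS26 (−0.85).

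Small nucleolar RNAs, which guide modification of ribosomal RNA in the nucleolus, had the lowest medians over IgG of the 34 lists. Of 206 tested, 197 (95.6%) were lower than IgG in the wild type and 188 (91.3%) in the mutant, with medians of −3.95 and −4.48. Over all genes, 17% and 9.61% were lower. The difference was below 0 in 147 of 206, with a median of −0.43 and a median SE of 1.07 per gene, and 0 passed without a block. The gene with the smallest p was snoRNA:Or-aca5. Its pairs gave −3.18, −3.95, −4.01, −3.38 and −4.14 in the wild type and −5.55, −5.81, −5.57 and −6.32 in the mutant, without overlap. Pairs of 1.43% of all genes did not overlap, and the gap here is tied to the choice by p. The difference of snoRNA:Or-aca5 was −2.13 ± 0.73 (adjusted p = 0.901 in edgeR). With a replicate block by lysate it was −2.14 and passed (adjusted p = 0.0403), as it did with both blocks, and with the block by number alone it did not (adjusted p = 0.0913). Small structured RNAs took 0.939% to 1.58% of counts in wild-type and 1.04% to 2.27% in mutant Fmr1 libraries, and 1.65% to 8.55% and 4.55% to 10.1% in IgG libraries. The list of snRNA, tRNA, RNase P, 7SK and 7SL had a median difference of −0.25, ribosomal RNA one of −0.39 and transcripts of the mitochondrial genome one of 0.34, with 0 called and a single member under 0.05 among the 3 lists. Most small structured RNAs have several copies or lie in host genes, and how their reads were assigned is not given in the sources used here.

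**Figure D5:**
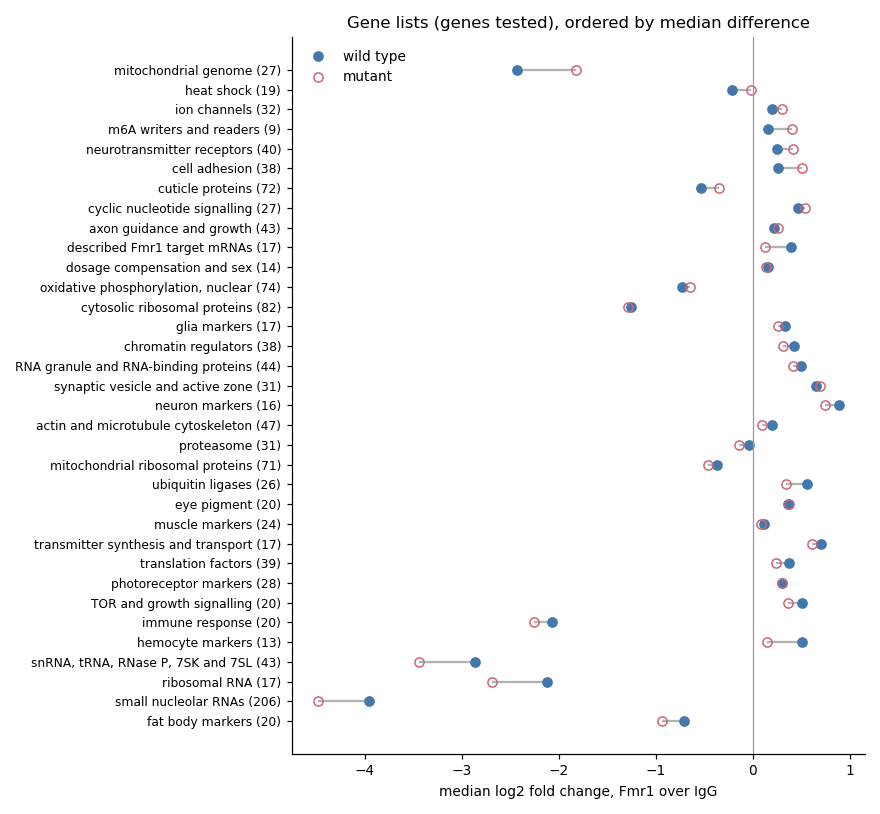
Median log2 fold change of Fmr1 over IgG in the wild type (filled) and the mutant (open) for 34 gene lists, with the number of genes tested, ordered by the median difference. Neuron markers and synaptic vesicle genes lie to the right and small nucleolar RNAs to the left in both genotypes, and no gene of any list passed the test of the difference in the fit without a block.

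Fat body genes had the lowest list median, −0.48, with 18 of 20 below 0, 4 under an unadjusted p of 0.05 (against 4.39% of all genes) and 0 called. These 4 were Lsp1gamma, a larval storage protein (−1.69 ± 0.50, adjusted p = 0.807), Apoltp, a lipid transfer particle protein (−0.96 ± 0.31, adjusted p = 0.860), apolpp, the main lipoprotein precursor (−0.68 ± 0.31), and Lsd-2, a lipid droplet protein. Lsp1gamma stood at 452, 140.1, 150.2, 213 and 169 CPM in wild-type and 140.3, 463, 533 and 785 CPM in mutant IgG libraries, with 38.2 to 110.3 and 39.8 to 72.9 CPM in Fmr1 libraries. The IgG levels overlapped through replicate 1 of each genotype. The 7 defining fat body markers summed to 1494 to 3977 CPM in wild-type and 2098 to 9646 CPM in mutant IgG libraries, to 350.0 to 605 and 491 to 1019 CPM in Fmr1 libraries and to 608 to 857 and 1053 to 1203 CPM in inputs. None of the 7 was at 0 in any group, and their part in the list's values was not tested.

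Markers of other cell types had medians a little below 0. These were −0.077 for 16 neuron, −0.029 for 17 glia (above 0 with DESeq2 size factors), −0.19 for 28 photoreceptor, −0.14 for 24 muscle and −0.23 for 13 hemocyte genes, with 0 called. Of neuron markers 12 (75%) were higher over IgG in the wild type and 11 (68.8%) in the mutant, against 16.4% and 10.8% of all genes, and Rbp9, a neuronal RNA-binding protein of the ELAV family, was at −0.40. Glia markers included moody, a receptor of the glia that form the blood-brain barrier. Its pairs gave 1.01, 0.59, 0.74, 0.65 and 1.09 in the wild type and −0.092, 0.38, 0.14 and 0.16 in the mutant, without overlap. Pairs of 1.43% of all genes did not overlap, and moody was named for a small p, so the gap is tied to that choice. The difference of moody was −0.69 ± 0.25 (adjusted p = 0.901 in edgeR). htl, an FGF receptor, was at −0.54 ± 0.24. ninaC, a photoreceptor myosin, was at −0.43, bt, a giant muscle protein, at −0.76, Msp300, a muscle nesprin, at −0.41 and eater, a phagocytic receptor of hemocytes, at −0.51. The members named here all lay below 0, but 5 neuron, 6 glia, 6 photoreceptor, 6 muscle and 2 hemocyte genes lay above 0. The highest values in these lists were 0.45, 0.20, 0.36, 1.08 and 0.60, in that order.

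The remaining lists held 0 called genes too. Medians were −0.23 for 20 immune, 0.20 for 19 heat shock, 0.09 for 72 cuticle, 0.067 for 14 dosage compensation and sex and −0.14 for 20 eye pigment genes. Among the latter, w, the transporter gene whose mutant allele gives w1118 its name, was almost absent from wild-type libraries. It stood at 0 to 0.206 CPM in wild-type and 27.2, 57.5, 57.4 and 41.6 CPM in mutant Fmr1 libraries, at 0 to 2.501 and 16.3, 32.3, 37.2 and 29.5 CPM in IgG libraries and at 0 to 0.180 and 26.9, 21.4, 21.2 and 32.5 CPM in inputs. The stocks thus differed in the level of w as well as at Ythdf. Enrichment of w was 0.60 ± 0.30 in the mutant, and no fold is given for the wild type, where IgG libraries held at most 2 counts. st, its partner in pigment transport, was at −0.93 ± 0.35 (adjusted p = 0.908).

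Among called genes with a mean of at least 2 log2 CPM, RpLP0-like, a relative of a ribosomal stalk protein, had the highest enrichment in both genotypes, at 3.12 ± 0.34 in the wild type and 3.27 ± 0.39 in the mutant, and its difference was 0.14 ± 0.55. CG9328 was at 2.37 ± 0.36 and 1.91 ± 0.40, CG14435 at 2.37 ± 0.39 and 2.17 ± 0.43 and CG7166 at 2.04 ± 0.38 and 1.88 ± 0.44, all called in both. CG10669 was at 2.16 ± 0.23 and 1.32 ± 0.26, a difference of −0.84 ± 0.34 (adjusted p = 0.986 in edgeR), and it fell in mutant Fmr1 libraries (−1.09 ± 0.20, adjusted p = 8.00e-04). dan, a nuclear factor of eye and neuron development, was at 1.02 ± 0.26 and 2.00 ± 0.32, a difference of 0.97 ± 0.42. These genes were chosen for high values in 1 genotype, so the sign of the difference is tied to that choice.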

How the data were processed

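RNA pulled down from pupal head lysates with Fmr1 antibodies or mouse IgG, and input RNA, was made into strand-specific, rRNA-depleted Ovation SoLo libraries that carry a UMI read, per the labels' protocols. Per the submitters' processing notes, bcl2fastq 2.20, Trim Galore and STAR were used, while the genome build, counter, strand setting and use of UMIs are not given in the sources used here. The authors deposited whole-number read counts per gene, not normalized, for all 27 libraries. The 5 rows that name no gene took up 23.8% to 74.7% of reads, depending on the library, and were left out. Gene names came from the reference annotation for 17710 of the 17807 gene IDs.

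The counts were filtered with filterByExpr (minimum count 10, minimum total 15), scaled by TMM and fitted in edgeR 4.0.16 (R 4.3.3) with 6 groups and a robust quasi-likelihood test, with p adjusted over 11469 genes by Benjamini-Hochberg. The threshold was an adjusted p of 0.05. Values are log2 differences with standard errors, CPM are TMM-scaled, and values per pair of libraries use a prior count of 2. Signs of coded differences are mutant minus wild type. The common biological coefficient of variation was 0.281, and no pair of libraries was identical. The method was tested on simulated data, with differences planted only in more abundant genes and no effect of lysate or replicate number. That test does not cover differences in scarce genes or such effects. Alternatives were DESeq2 1.42.0, limma 3.58.1 voom, other scalings and filters, blocks, and leaving out libraries. Those for the input reference and for Pde11 there and within Fmr1 libraries were added after seeing the data. The members, lists and tests were chosen with earlier results of these data known. Genes were named as the 10 of smallest p in each direction, Fmr1, Ythdf, futsch, chic, Rac1, the m6A list, up to 3 members of smallest p per list and the most changed over IgG. Of the 142 genes this gives, the text names those chosen after their values were seen.

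Fmr1 libraries of the same number deviated together across genotypes (correlation of deviations from group means 0.311 to 0.639 over 4 pairs). Of these, 2 wild-type and 3 mutant libraries correlated best with their own number. The main fit uses no block. The pairs in the text are Fmr1 and IgG libraries of the same number within a genotype, whose correlations are given below.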

Additional observations from a re-analysis of the deposited data

Results flagged for a closer look

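In pair 1 of the wild type, Nep5 enrichment over IgG was 4.18 (log2), far from the other pairs, which lay between −1.61 and −0.997. In pair 1 of the mutant it was 5.6003, against 1.10 to 1.80 in the other 3 pairs, and in both cases the IgG library of replicate 1 had 0 counts of Nep5. The enrichment of lncRNA:CR44603 in pair 3 of the wild type was −4.10, against −0.13 to 1.10 in the other pairs. These 3 were the values far from their group among 66 groups of 33 genes, and chance alone flags about 1 in 20 groups. Pde11 was the gene whose Fmr1 enrichment over input differed between genotypes by a test, at −1.28.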

How the results depend on the processing

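For the difference in enrichment, 0 genes were called in edgeR. DESeq2 size factors called 2 and moved the median of all genes to 0.066, upper-quartile factors called 3, DESeq2 called 5, and leaving out 1 library called 0 to 2. No gene was called by voom, without a filter, with 10 or more mean IgG counts, without small structured RNAs, in the 18 pull-down libraries alone, or with only replicates 2 and 3 or 1, 5 and 7. A replicate block by lysate called 1, by number 2, and by both 50 (32 higher, 18 lower), and the causes of these shifts were not tested. Same-numbered Fmr1 and IgG libraries correlated at 0.181 to 0.318 in the mutant and −0.0128 to 0.326 in the wild type, and IgG libraries across genotypes at 0.0496 to 0.194. Of the 5 wild-type pairs 4 were over 0.1. Lysates were split between the kinds of library, but the labels do not say that a number marks a lysate. The fit without a block was therefore kept as the main one, and it treats libraries of a shared lysate as independent. Some libraries of each kind, those with Fmr1 included, correlated better with another number than with their own. Replicate blocks by number called 1249 genes in Fmr1 libraries, 1219 in IgG libraries and 1575 in inputs. With input as the reference, a replicate block called 3 genes, DESeq2 2, voom 26, and leaving out 1 library 0 to 2.

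The single values that changed sign did not pass the test under any of these settings. When 1 library was left out, these ranged as follows: Fmr1 (−0.014 to 0.13), Ythdf (−0.74 to 0.015), Rac1 (−0.064 to 0.23), Mettl3 (−1.25 to 0.24), Mettl14 (−0.19 to 0.50), fl(2)d (−0.056 to 0.37), Flacc (−0.41 to 0.28), Hakai (−0.11 to 0.35), Ythdc1 (−0.033 to 0.54), RpLP0-like (−0.15 to 0.49), CG9328 (−0.94 to 0.036), CG14435 (−0.56 to 0.11) and CG7166 (−0.86 to 0.24). The per-pair difference of Rac1 ranged from −0.019 to 0.28. Mettl3 was −0.066 with a replicate block by lysate and −0.42 with voom. Flacc was 0.012 with DESeq2 size factors, 0.017 in the pull-down libraries alone, 0.067 with DESeq2 and 0.35 with voom, and CG14435 was 0.20 with voom. With only replicates 2 and 3, Mettl3 was −0.76, Mettl14 −0.012, fl(2)d −0.033 and Ythdc1 −0.078, and with only replicates 1, 5 and 7, Rac1 was −0.16 and vir −0.15. The shallowest IgG libraries limit all values of scarce genes. The p-values of the main fit compare a difference with a spread estimated from all 27 libraries, inputs included.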
